A study of Canis lupus familiaris with 12 samples.

Results

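The miR-34 family and its miR-449 relatives were followed in 2 dog mammary tumor cell lines, the metastatic line CHMm and its tamoxifen (TAM)-resistant derivative CHMmTAM. The family was taken as every miRNA of the count table named miR-34a, miR-34b or miR-34c or with a name starting in miR-449, which gave 5 of the 453 miRNAs listed: cfa-miR-34a, cfa-miR-34b, cfa-miR-34c, cfa-miR-449a and cfa-miR-449b, written below without the species prefix. Another 4 names that begin with the same digits, such as miR-340, belong to other families and were not included. CHMmTAM had been selected in rising TAM over 10 months up to 10 μM, then held at that dose for 1 month and kept without the drug for 1 week before sampling, whereas CHMm is the parental line. For culture, the paper names phenol-red-free medium with steroid-depleted serum and 4-hydroxytamoxifen, and it gives no separate medium for CHMm. Each line was sequenced as 3 small RNA libraries, with 7512659 to 12482211 reads counted on miRNAs per library, where 3 counts correspond to 0.24 to 0.399 CPM (the share of a library's counts on a common scale). Whether the libraries of a line came from separate cultures is not stated, so that p-values measure the spread between these libraries, which may be technical. CHMmTAM is 1 selected line, and resistance and other changes over the months of culture cannot be told apart.

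miR-34 miRNAs are known as tumor suppressive miRNAs. In human and mouse cells they act on mRNAs of cell cycle and survival genes, among them CDK6, MET, MYC and BCL2, and they take part in cell cycle arrest, senescence and apoptosis. miR-34a is made from a gene of its own, while miR-34b and miR-34c are processed from a shared primary transcript. miR-449 miRNAs carry the same seed, the short 5′ stretch that pairs with target mRNAs, but they are controlled mainly by E2F1 and by the program of multiciliated cells, in which miR-34b, miR-34c and miR-449 are abundant.

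For miR-34b and miR-34c, the oligos that the study listed for their qRT-PCR are written below 5′ to 3′ as DNA. They stand in for the mature sequences, which were not used here. The 10 bases in capitals are the longest run the oligos share, and it contains the stretch that pairs with target mRNAs.
miR-34b: AGGCAGTGTAattagctgattg
miR-34c: cggAGGCAGTGTAgttagctgat
Aligned on that run, the oligos overlap by 20 bases, of which 19 are identical. The remaining difference is A11G, with the base of the miR-34b oligo first, the position counted from 1 at the 5′ end of that oligo, and the base of the miR-34c oligo last. If these oligos follow the mature miRNAs, reads of miR-34b and miR-34c differ at few positions. The handling of reads that match several miRNAs is not given in the sources used here. A shift of reads between miR-34b and miR-34c would leave their sum as it is. Another oligo of the list, the one given for miR-152, which belongs to another family, contains the whole miR-34b oligo, marked in capitals, followed by 3 further bases.
miR-152: AGGCAGTGTAATTAGCTGATTGtca
The same sequence was also listed as the forward primer of a lncRNA, lnc-48177, whose reverse primer is its reverse complement. Whether the listed sequence is the one used at the bench was not tested. The study reported miR-34b and miR-34c as higher and miR-152 as lower from sequencing, and it described its RT-PCR results as similar. In the sequencing counts analysed here, miR-152 and miR-34b moved in opposite directions, with miR-152 at a log2 fold change of -3.31 (standard error 0.20) between CHMmTAM and CHMm and miR-34b at 2.19 (standard error 0.22).

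In the RefSeq genes of the dog assembly UU_Cfam_GSD_1.0, all 5 members were matched by name. MIR34B and MIR34C were each other's nearest miRNA gene and lay within the span of HOATZ, next to BTG4. MIR34A lay outside any other annotated gene, on the same chromosome, with GPR157 and H6PD among its neighbours and with MIR551A as its nearest miRNA gene. MIR449A and MIR449B lay within the span of CDC20B, on another chromosome, followed by MCIDAS and CCNO, which are genes of the multiciliated cell program. HOATZ is also known as a gene of motile cilia. These positions are of another assembly than the one named in the submitters' processing notes, CanFam3.1, so that no coordinates are given.

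The members differed widely in level in the parental line. miR-34a was by far the most abundant member, with 290 ± 15.0 CPM (SD, n = 3) in CHMm, which put it at rank 78 among the 284 miRNAs tested. miR-34c had 11.9 ± 1.29 CPM (rank 153) and miR-34b 2.36 ± 0.502 CPM (rank 193). miR-449a, at 1.22 ± 0.352 CPM, was at rank 204, and miR-449b was barely detected at 0.120 ± 0.113 CPM. Mature miRNAs are of nearly equal length, so that these CPM values were compared between members without a correction for length, although the efficiency of library preparation can differ between sequences. Each neighbouring pair in this order was separated in every CHMm library, the closest being miR-34b and miR-449a, whose values ranged from 1.81 to 2.79 CPM and from 0.861 to 1.56 CPM.

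miR-34c rose in CHMmTAM from a low level. It was counted 76, 143 and 115 times in CHMm replicates 1, 2 and 3 and 656, 681 and 468 times in CHMmTAM replicates 1, 2 and 3. In normalised read counts these were 10.4, 12.3 and 12.9 CPM in CHMm and 51.4, 61.7 and 58.8 CPM in CHMmTAM. The lines did not overlap, and the lowest CHMmTAM library lay 3.99-fold above the highest CHMm library. The log2 fold change was 2.26 (standard error 0.12, FDR = 4.90e-72 by edgeR's quasi-likelihood test, adjusted by Benjamini-Hochberg over the 284 miRNAs), a 4.78-fold rise with a 95% interval of 4.09 to 5.60. miR-34c moved to rank 114 by abundance in CHMmTAM and held rank 5 among the tested miRNAs when ordered from the highest log2 fold change down.

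miR-34b, from the same locus, rose by nearly the same factor from a lower level. The CHMm libraries held 18, 21 and 25 reads of it, and the CHMmTAM libraries 120, 107 and 104. The normalised values were 2.46, 1.81 and 2.79 CPM in CHMm and 9.39, 9.70 and 13.1 CPM in CHMmTAM. Again the lines were separate, with 3.36-fold between the highest CHMm and the lowest CHMmTAM library. The log2 fold change was 2.19 (standard error 0.22, FDR = 2.32e-22 by edgeR's quasi-likelihood test), or 4.55-fold with a 95% interval of 3.41 to 6.13. With so few reads the precision in CHMm was set by counting: the coefficient of variation between libraries was 21.3%, where counting error alone gives 21.7% at this mean count.

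miR-34a also rose, by a smaller factor. The CHMm libraries held 2228, 3376 and 2457 reads and the CHMmTAM libraries 4515, 4453 and 3525, or 305, 291 and 275 CPM against 353, 404 and 443 CPM. All CHMmTAM libraries lay above all CHMm libraries, with 1.16-fold between the nearest of them. The spread within CHMmTAM, a coefficient of variation of 11.2%, was larger than the 1.55% that counting error gives at this depth, so that the number of reads did not limit this value. The log2 fold change was 0.46 (standard error 0.07, FDR = 1.96e-09 by edgeR's quasi-likelihood test), a 1.38-fold rise with a 95% interval of 1.25 to 1.52, which lies below the 2-fold threshold of the study. With upper-quartile scaling, under which the median over all tested miRNAs lay at -0.18 instead of 0.06, the log2 fold change for miR-34a was 0.22 (FDR = 0.0115 in the same quasi-likelihood test).

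For miR-449a no difference was detected. It was counted 9, 10 and 14 times in CHMm and 12, 19 and 11 times in CHMmTAM, and the normalised values of 1.23, 0.861 and 1.56 CPM in CHMm overlapped those of 0.939, 1.72 and 1.38 CPM in CHMmTAM. The log2 fold change was 0.16 (standard error 0.43, FDR = 0.812 by edgeR's quasi-likelihood test). The 95% interval of the fold ran from 0.623 to 1.998. At this depth a rise of up to about the study's threshold, or a fall to 0.623-fold, could not be seen. A rise of the size of miR-34b or miR-34c lies outside the interval. For miR-449b the CHMm libraries held 1, 0 and 2 reads and the CHMmTAM libraries 2, 1 and 1. It had 7 counts over the 6 libraries, under the minimum of 10, and was not tested. The CHMm library without a read allows up to 0.262 CPM, a limit that, like the Wilson intervals of shares, covers counting error only, and no fold is given for miR-449b.

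**Figure D1:**
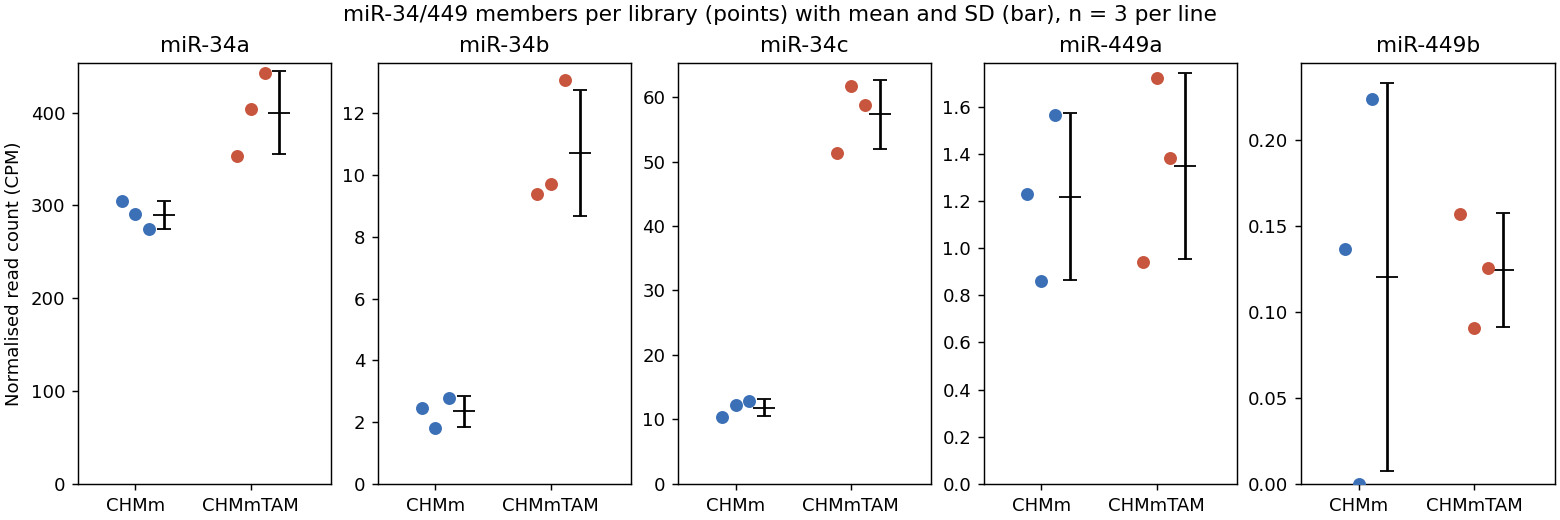
Normalised read count (CPM, y axis from 0, a scale for each panel) of the 5 members in the 3 CHMm and 3 CHMmTAM libraries. Points are libraries and bars are mean and SD. The lines are separate for miR-34a, miR-34b and miR-34c and overlap for miR-449a and miR-449b, where the highest counts of any library are 19 and 2.

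Read against all tested miRNAs, 2 of the 4 tested members, miR-34b and miR-34c, passed the study's thresholds (FDR below 0.05 and log2 fold change above 1 or below -1) as higher in CHMmTAM, where 5.99% of the 284 miRNAs did (17 higher and 15 lower, or 12 and 22 with upper-quartile scaling). 3 of the 4 were higher at an FDR below 0.05 alone, against 25.4% of all tested miRNAs. The same 3 had no overlap between the lines, against 28.9% of all tested miRNAs that lay higher in every CHMmTAM library. Counting either direction, these backgrounds were 11.3%, 44.0% and 51.8%. None of the 4 was lower at an FDR below 0.05, where 18.7% of the tested miRNAs were and 5.28% also passed the fold threshold. Since 72 of the tested miRNAs rose by FDR alone, the smaller rise of miR-34a has many counterparts, and it held rank 75 by log2 fold change.

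**Figure D2:**
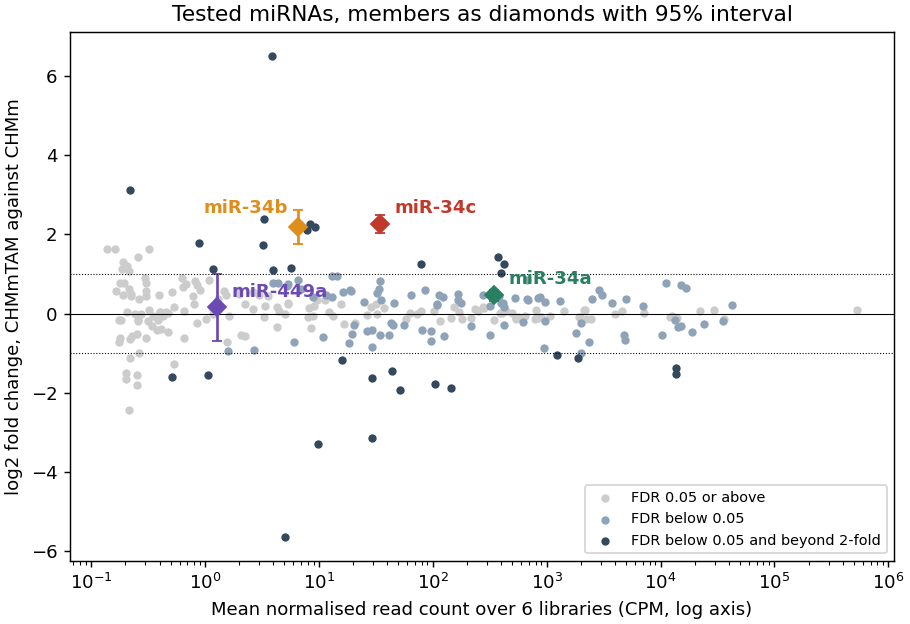
Log2 fold change of CHMmTAM against CHMm (y axis) by mean CPM over the 6 libraries (x axis, log scale) for the 284 tested miRNAs. Diamonds are the 4 tested members with 95% intervals: miR-34b and miR-34c lie above the dotted 2-fold line at 2.19 and 2.26, miR-34a lies below it at 0.46, and the interval of miR-449a spans 0.

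To ask whether the 34b/34c locus differed from miR-34a and miR-449a, the counts of 2 members were set against each other inside each library, a ratio that does not depend on the scaling between libraries. In CHMm 1 read of miR-34c was counted for 29.3, 23.6 and 21.4 reads of miR-34a in replicates 1, 2 and 3, and in CHMmTAM for 6.88, 6.54 and 7.53 reads. The log2 ratio of miR-34c to miR-34a was -4.61 ± 0.23 (SD, n = 3) in CHMm and -2.80 ± 0.10 in CHMmTAM, a difference of 1.81 (standard error 0.15) or 3.51-fold. The log2 ratio of miR-34b to miR-34a rose by 1.71 (standard error 0.22). Against miR-449a, miR-34c gained 2.14 (standard error 0.31) and miR-34b 2.04 (standard error 0.26) on the log2 scale. For these 4 pairs every CHMmTAM library lay above every CHMm library. The exact two-sided permutation test gave p = 0.1 for each of them (0.15 adjusted over the 6 pairs compared), which is the smallest p that 3 against 3 libraries allow, so that this test could not pass 0.05.

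The ratios within the locus and between miR-34a and miR-449a were not separated between the lines. miR-34c exceeded miR-34b by 4.22, 6.81 and 4.60 times in CHMm and by 5.47, 6.36 and 4.50 times in CHMmTAM. The log2 ratio was 2.32 ± 0.37 (SD, n = 3) and 2.43 ± 0.25, a difference of 0.10 (standard error 0.26, exact permutation p = 0.8, adjusted 0.8). As a share, miR-34b made up 12.8% to 19.1% of the reads of the locus in CHMm and 13.6% to 18.2% in CHMmTAM, and each library's 95% Wilson interval overlapped those of all others, such as 12.5% to 28.3% in CHMm replicate 1 and 11.4% to 16.2% in CHMmTAM replicate 2. The mean shares differed by -0.862 percentage points, from 16.6% to 15.7% (exact permutation p = 0.8), and the sign of this difference turned when CHMm replicate 1 (0.410) or CHMmTAM replicate 2 (0.219) was left out. The log2 ratio of miR-34a to miR-449a differed by 0.33 (standard error 0.33, exact permutation p = 0.5, adjusted 0.6), where the few reads of miR-449a set the error.

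**Figure D3:**
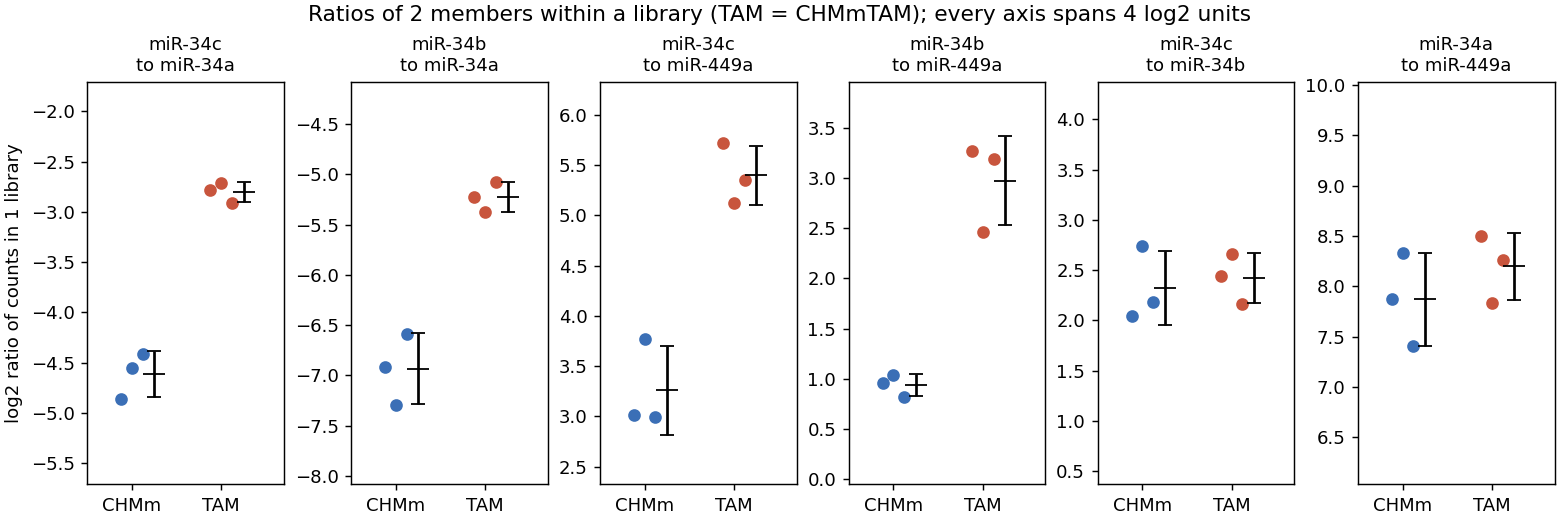
Log2 ratio of the counts of 2 members within a library (y axis, every panel spanning 4 log2 units) for the 6 pairs. Points are libraries and bars are mean and SD. The 4 ratios of miR-34c or miR-34b to miR-34a or miR-449a are separate between the lines, with differences of 1.71 to 2.14, and the other 2 overlap.

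The makeup of the family shifted with these changes. All members together made up 305.5 ± 13.4 CPM (SD, n = 3) of CHMm, and in CHMmTAM 469.5 ± 50.9 CPM. miR-34a held 94.9% ± 0.777 of the reads of the family in CHMm and 85.2% ± 0.576 in CHMmTAM, while miR-34c went from 3.90% ± 0.582 to 12.2% ± 0.786 and miR-34b from 0.773% ± 0.183 to 2.28% ± 0.249. miR-34a thus remained the main member in both lines. On the linear scale it also contributed most of the gain of the family, 67.1% of the added CPM against 27.7% for miR-34c and 5.10% for miR-34b. The locus of miR-34b and miR-34c summed to 14.2 ± 1.40 CPM in CHMm and 68.0 ± 6.30 CPM in CHMmTAM, which stayed below the level of miR-34a in either line. In bulk RNA, a larger part of the cells with these miRNAs and more of them per cell cannot be told apart.

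Patterns across the 6 libraries were compared by the root mean square difference of log2 CPM, each miRNA centred on its own mean, as a description without a test. Among all 283 other tested miRNAs, miR-34b ranked 2 in nearness to miR-34c at a difference of 0.26, while miR-34a ranked 53 (0.91) and miR-449a 123 (1.098). Of the miRNAs outside the family with a mean of at least 10 CPM, those nearest to miR-34c were miR-10b (0.42), miR-187 (0.51), miR-181a (0.52), miR-140 (0.63) and miR-8827 (0.71). Without this minimum, which miR-34b itself does not reach, the nearest to miR-34c was the muscle miRNA miR-1 (0.22), and miR-133c (0.26), miR-133a (0.27) and miR-486 (0.28) followed miR-34b closely. This ranking without the minimum was added after the values were seen. Those nearest to miR-34a were miR-454 at 0.023, miR-301a at 0.066, miR-30a at 0.073, miR-93 at 0.076 and miR-107 at 0.085. With 2 lines, these distances mostly follow the size of the difference between the lines.

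The miRNAs of other cell types were read beside these values. Epithelial miRNAs (miR-200a, miR-200b, miR-200c, miR-141, miR-429, miR-203 and miR-205) were present at high level in both lines, with a summed level of 25124 to 26471 CPM in CHMm and 22450.4 to 23736 CPM in CHMmTAM. Of these 7, miR-200a, miR-200b and miR-429 were higher and miR-203 and miR-205 lower at an FDR below 0.05. Their log2 fold changes ran from -0.66 (miR-205) to 0.36 (miR-429). miR-200c and miR-141, at -0.06 and -0.09, did not pass. Among all 284 tested miRNAs, 25.4% were higher and 18.7% lower at that FDR. The 5 listed muscle miRNAs summed to 8.87 to 10.8 CPM in CHMm and 41.6 to 46.0 CPM in CHMmTAM, the same direction as miR-34c. Of these, 4 were tested, and all 4 (miR-1, miR-133a, miR-133b and miR-133c) passed both thresholds as higher, against 5.99% of all tested miRNAs. miR-133b had only 2 to 6 reads per CHMm library. The miR-133 names belong to the same family, and how reads that match several miRNAs were handled is not given. The other, miR-206, averaged 0.066 CPM in CHMm and 0.159 CPM in CHMmTAM. It had at most 1 read per CHMm library and 3 per CHMmTAM library and was not tested. Another muscle miRNA, miR-499, was not on the list. Its level was 307, 272 and 270 CPM in CHMm and 389, 402 and 394 CPM in CHMmTAM. The listed blood miRNAs were miR-142, miR-144, miR-150, miR-223 and miR-451. They summed to 3.8 to 4.92 CPM in CHMm and 6.97 to 8.52 CPM in CHMmTAM. Of the 3 tested, miR-142 alone was higher at an FDR below 0.05. Not on that list was miR-486, also known from blood cells, which averaged 1.09 CPM in CHMm and 5.54 CPM in CHMmTAM. Mesenchymal miRNAs (miR-143, miR-145, miR-199 and miR-214) were low at 39.7 to 47.6 CPM and 23.8 to 28.8 CPM, with miR-199 lower. Of the neural miRNAs miR-9 and miR-124, miR-9 was tested and did not pass. miR-124 had no read in CHMm and at most 1 per CHMmTAM library. Their sum, 1077 to 1117 CPM in CHMm and 993 to 1096 CPM in CHMmTAM, was thus almost all miR-9. The part of these in the rise of miR-34b and miR-34c was not tested. The miRNAs named above as abundant in multiciliated cells are miR-34b, miR-34c and miR-449 themselves. Of these, miR-34b and miR-34c rose 4.55-fold and 4.78-fold, while miR-449a stayed below 2 CPM in every library. Whether such cells had a part in these values was not tested.

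In every setting shown, miR-34b and miR-34c had higher log2 fold changes than miR-34a, while the order of miR-34b and miR-34c turned in some fits that left out a library. miR-34a also lay above miR-449a in each, but only at 0.42 against 0.39 without CHMm replicate 3. The ratio of miR-34a to miR-449a was not separated between the lines, so that their order is not resolved. Over 16 alternative settings each, the log2 fold change ranged from 2.01 to 2.36 for miR-34c and from 1.94 to 2.34 for miR-34b, with an FDR of 6.00e-06 or lower from edgeR, DESeq2 or limma in each. miR-34a ranged from 0.22 to 0.57 and did not pass the test against a 2-fold change. miR-449a ranged from -0.09 to 0.42 and passed in none.

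**Figure D4:**
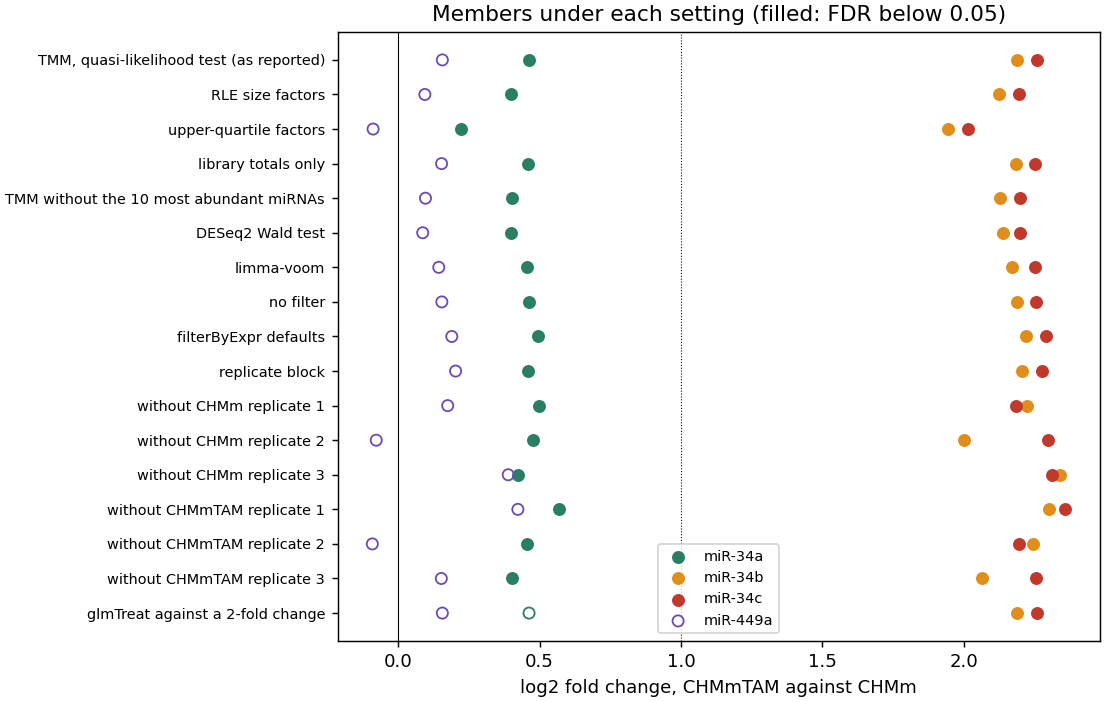
Log2 fold change of CHMmTAM against CHMm (x axis) of the 4 tested members under each setting (y axis). Filled points have an FDR below 0.05. miR-34b and miR-34c lie between 1.94 and 2.36 in all settings, miR-34a between 0.22 and 0.57, and miR-449a, always open, between -0.09 and 0.42.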

How the data were processed

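The deposited table holds raw counts, not normalized, of the reads the authors assigned to each miRNA name in each of the 6 small RNA libraries. The submitters' processing notes name CanFam3.1, HISAT2 2.0.4 and BWA without a role. The miRNA database, trimming and the treatment of reads that match several miRNAs are not given in the sources used here, and could move counts between similar miRNAs. RNA-seq libraries were not analysed here.

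miRNAs with at least 10 counts over the 6 libraries were scaled by TMM, and the lines were compared by the quasi-likelihood test of edgeR 4.0.16 in R 4.3.3, with Benjamini-Hochberg adjustment over all tested. A miRNA passed the test at an FDR below 0.05, and the study's fold threshold at a log2 fold change above 1 or below -1. CPM use TMM factors. Standard errors and 95% intervals come from the coefficient and its F statistic. Ratios within a library used a pseudocount of 0.5 and an exact permutation test, and shares used 95% Wilson intervals (SciPy 1.17.1). No library was counted as a repeat, since within a line the chi-square of any pair was at least 26.3 per degree of freedom. The fit was tested on simulated data. Alternatives used DESeq2 1.42.0, limma 3.58.1, other scalings and filters, a replicate block and libraries left out.

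The family and the cell type lists were chosen with earlier results of these data known. Named miRNAs are the members, the 5 nearest in pattern to miR-34c and to miR-34a among miRNAs with a mean of at least 10 CPM, and list members past both thresholds. The other list members, miR-152, miR-486 and miR-499 were named after their values were seen. Mature sequences were not used here beyond the study's qRT-PCR oligos.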

Additional observations from a re-analysis of the deposited data

How the results depend on the processing

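Of 135 alternative values, 125 were classed as the same, 1 as weaker, 7 as reversed and 2 as moved. Differences of ratios and shares have no FDR and were classed by their sign. The 17 counts of calls have no direction, and their class does not cover the split into higher and lower calls. With 32 miRNAs past both thresholds, other scalings, filters and tools gave from 29 to 34, the FDR alone gave 125, and glmTreat against a 2-fold change gave 21 and did not call miR-34a (0.46). Upper-quartile scaling gave 12 higher and 22 lower calls, against 17 and 15. miR-449a, which passed in no setting, turned sign with upper-quartile factors (-0.088).

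Leaving out 1 library at a time gave from 30 to 34 calls. The log2 fold change ranged from 0.40 to 0.57 for miR-34a, from 2.002 to 2.34 for miR-34b, from 2.19 to 2.36 for miR-34c and from -0.091 to 0.42 for miR-449a, the sign of which turned without CHMm replicate 2 (-0.077) and without CHMmTAM replicate 2 (-0.091). The ratio differences ranged from 1.68 to 1.91 (miR-34c to miR-34a), 1.53 to 1.88 (miR-34b to miR-34a), 1.98 to 2.40 (miR-34c to miR-449a), 1.89 to 2.29 (miR-34b to miR-449a), 0.10 to 0.56 (miR-34a to miR-449a) and -0.034 to 0.31 (miR-34c to miR-34b). The last turned without CHMm replicate 1 (-0.034) and without CHMmTAM replicate 2 (-0.017), and so did the share of miR-34b in the locus, which ranged from -2.76 to 0.410 percentage points (0.410 and 0.219 in these fits).

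The labels give replicate numbers 1, 2 and 3 in each line but do not say that equal numbers belong together. Over 117 miRNAs above 50 CPM, deviations of same-numbered libraries from their line's mean correlated at 0.06, 0.46 and -0.31. With 3 libraries per line these correlations depend on each other, so that they cannot decide whether equal numbers belong together. The fit with a replicate block called 31 miRNAs by both thresholds, and the log2 fold changes were 0.46, 2.204, 2.27 and 0.20 for miR-34a, miR-34b, miR-34c and miR-449a, with no call changed among the members. The cause of the changes of sign was not tested. At 1 to 2 CPM, the depth limits miR-449a to changes beyond about 2-fold, and miR-449b cannot be compared.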
